A study of Homo sapiens with 15 samples.

Results

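Reh is an established line of human B-cell precursor leukaemia with an ETV6::RUNX1 fusion gene, and it was grown as separate engineered control populations for different experiments. The comparison described here takes the libraries of 2 such controls, chosen by their titles: 6 of the 15 messenger RNA libraries in the series. The 3 tagBFP libraries came from cells with a doxycycline-inducible (DoxON) vector for V5-tagged tagBFP, a blue fluorescent protein, harvested after 48 h in 500 ng/ml doxycycline. The 3 sgCtrl libraries came from cells with inducible dCas9-KRAB, an inactive Cas9 fused to a repressor domain, and a non-targeting guide. These cells were sorted by the fluorescence marking the guide vector and harvested after 72 h in 500 ng/ml doxycycline. Vector, expressed protein, sorting and induction time therefore differ together and cannot be told apart. The library source is also entered differently in the labels (genomic for tagBFP, transcriptomic for sgCtrl), although the medium, the RNA isolation and the strand-keeping library kit are described alike. The labels speak of populations and name no clone, and nothing says that the 3 libraries of a group were separate cultures, so p-values measure only the spread between these libraries. Large on/off differences and lineage genes that stayed level are described for this reason, and no difference is ascribed to tagBFP, to dCas9-KRAB or to the guide.

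A precursor B-cell leukaemia keeps the programme of the cell it arose from. Transcription factors such as PAX5 and EBF1 hold B-cell identity, RAG1, RAG2 and terminal transferase cut and diversify the immunoglobulin genes, and the pre-B-cell receptor signals through CD79A, CD79B and tyrosine kinases. Lines kept in culture also carry metabolic programmes that follow the medium, the density and their own history. Fatty acids are built by FASN from units supplied by ACLY and the acetyl-CoA carboxylases, lengthened by the ELOVL enzymes and given double bonds by the desaturases, of which SCD makes oleate from stearate.

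SCD and MRS2, on in the tagBFP cells, and UNC13A, on in the sgCtrl cells, are the genes on which the account of on/off differences turns, so the sequence before each start is shown. It is RefSeq sequence of GRCh38.p14, 5′ to 3′ on the strand of the gene, with every CG in capitals, and it ends before the first base of the gene in GENCODE 29.
SCD, chr10:100346983-100347123, plus strand: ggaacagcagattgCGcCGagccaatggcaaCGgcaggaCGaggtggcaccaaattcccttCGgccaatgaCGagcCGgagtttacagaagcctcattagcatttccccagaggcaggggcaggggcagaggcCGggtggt
MRS2, chr6:24402686-24402907, plus strand: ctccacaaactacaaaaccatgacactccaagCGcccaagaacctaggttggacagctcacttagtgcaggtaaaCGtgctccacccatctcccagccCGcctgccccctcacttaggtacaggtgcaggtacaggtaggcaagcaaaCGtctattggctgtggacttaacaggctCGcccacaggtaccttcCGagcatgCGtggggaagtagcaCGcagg
UNC13A, chr19:17688366-17688604, minus strand: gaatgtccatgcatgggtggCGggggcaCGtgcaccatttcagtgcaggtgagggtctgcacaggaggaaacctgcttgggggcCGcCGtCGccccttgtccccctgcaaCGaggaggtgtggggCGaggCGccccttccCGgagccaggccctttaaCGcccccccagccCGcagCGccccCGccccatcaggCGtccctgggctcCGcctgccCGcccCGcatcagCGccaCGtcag
In the 250 bases before the RefSeq start, counted on the gene's strand, CG occurred 23 times for SCD, 13 times for MRS2 and 21 times for UNC13A. The stretches shown hold 141, 222 and 239 of these 250 bases, so the counts include bases that are not printed. Of 35116 RefSeq promoters, 25.8% held at least as many as SCD, 46.6% as many as MRS2 and 30.2% as many as UNC13A, and the median was 11. The series holds no measurement of methylation or of bound factors at these places.

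Library totals were 25897834 to 34046795 reads with tagBFP and 39873358 to 52481351 with sgCtrl. The deeper sgCtrl libraries nevertheless held reads of fewer genes, 16539 to 16900 against 18144 to 18650. The mitochondrial genome supplied 2.84% to 3.16% of the reads of named genes with sgCtrl and 1.16% to 1.42% with tagBFP. The deposited effective lengths were shorter than the transcripts by 286.8 to 292.3 bases with sgCtrl and by 334.8 to 352.8 with tagBFP. The same quantity was 340.7 to 346.6 bases in the 6 libraries of the ETV6 groups, which share the DoxON vector system, and 277.4 to 287.6 in the 3 libraries with a guide against ERG (sgERG).

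The controls differed in most genes. Of 14404 genes tested, 11557 (80.2%) passed edgeR's quasi-likelihood test at an adjusted p under 0.05, 5976 (41.5%) higher with tagBFP and 5581 (38.7%) higher with sgCtrl, and the groups did not overlap for 82.4%. Most differences were small: the median size was 0.53 on the log2 scale, and the median difference, tagBFP minus sgCtrl, was 0.02. A call alone therefore says little about a gene, and 2 rules were used to find large differences. A gene differed at least 8-fold when it passed the test with a log2 difference of at least 3 and stood at 5 CPM or more in every library of the higher group. CPM is the reads of a gene per 1000000 reads of named genes, scaled between libraries. A gene was on/off when it also stood at 0.5 CPM or less in every library of the other group.

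By these rules 119 genes (0.826% of those tested) differed at least 8-fold, 38 (0.264%) higher with tagBFP and 81 (0.562%) higher with sgCtrl. On/off genes numbered 22 in each direction, 0.153% of the genes tested both times. Many of the 44 were not ordinary genes. With tagBFP on, 10 were pseudogenes, 2 were nuclear copies of the mitochondrial 16S ribosomal RNA (MTRNR2L4 and MTRNR2L11), and 3 were protein-coding genes sharing sequence with other genes. With sgCtrl on, 9 were pseudogenes and 6 were protein-coding genes or read-through models with shared sequence, among them SMN2, a near-identical copy of SMN1. Pseudogenes made up 6.7% of all genes tested. The largest of these values belonged to AC116533.1, a pseudogene without a single unique 31-base word, with 6916, 5389 and 7530 reads in the sgCtrl libraries and 0 in each tagBFP library.

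Reads of such copies cannot be told apart from reads of the genes they resemble, so each gene's most counted transcript was cut into words of 31 bases and the share found in no other gene was counted. Of genes with under 20% unique words, 1.765% were on/off. The share was 0.512% between 20% and 80%, and 0.145% at 80% or more. Genes with at least 80% unique words are called mostly unique below. They left 14 protein-coding on/off genes, 7 in each direction. VASH1 (74.4% unique), ZNF626 (77.0%) and ZBTB8B (78.5%) lay just under that limit.

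**Figure D1:**
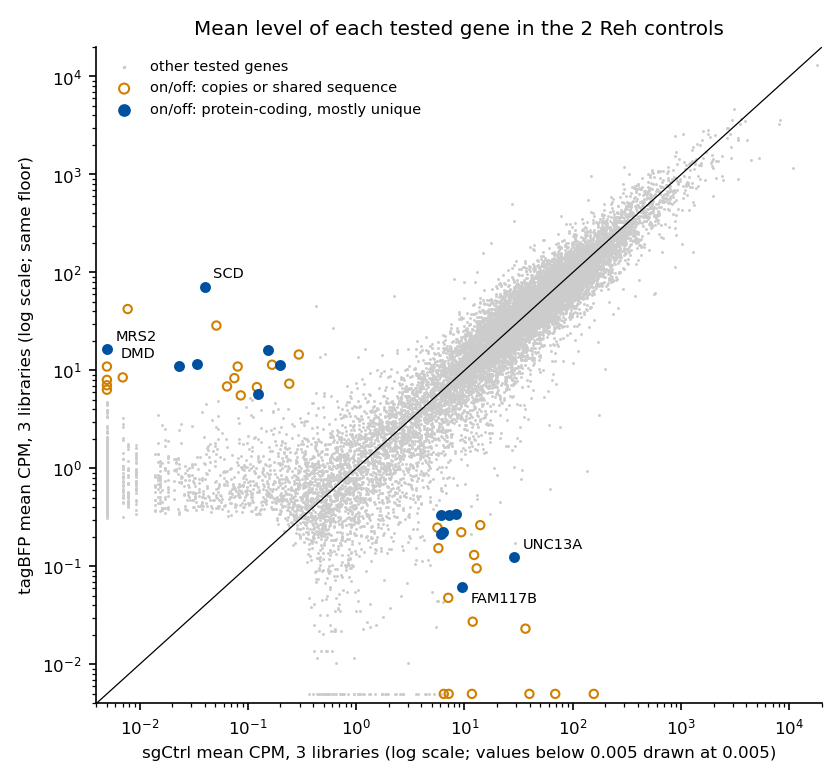
Mean CPM of each of the 14404 tested genes in the 3 sgCtrl libraries (horizontal, log scale) and the 3 tagBFP libraries (vertical, log scale), with the line of equal level. Most genes lie near the line, and the 14 mostly unique on/off genes (filled) and the 30 other on/off genes (open rings) lie far from it, with SCD highest of the filled points on the tagBFP side.

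SCD encodes stearoyl-CoA desaturase, the enzyme that puts the first double bond into saturated fatty acids. In the tagBFP libraries it stood at 75.0, 70.9 and 69.8 CPM, from 2439, 2041 and 1705 reads. In the sgCtrl libraries, sequenced more deeply, 4, 1 and 0 reads were counted. Every tagBFP library was high and every sgCtrl library was at or next to 0. The ratio of the groups' levels was 1819, with an exact 95% Poisson interval of 780 to 5603 that covers counting error in the sgCtrl reads only. The log2 difference in edgeR was 10.71 ± 0.17 (SE), adjusted p = 4.65e-11. A single SCD transcript is listed (SCD-201, chromosome 10, 100347124 to 100364834, plus strand, hg38), 86.9% of its words are unique, and its reads are not divided with another isoform.

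SCD was also low in the other libraries, to a different degree. On a scaling over all 15 libraries it stood at 9.15, 8.11 and 8.41 CPM with wild-type ETV6 and at 6.36, 6.75 and 5.66 with ETV6 R399C, whose cells carried the same vector system for the same 48 h. No read was counted in any of the 3 sgERG libraries. The libraries thus fell into 3 levels, with tagBFP highest, the ETV6 groups in between and both guide populations at or next to 0. The tagBFP and ETV6 groups were not compared by a test here.

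The genes around SCD differed less than SCD and in both directions. Of 11 tested genes within 500 kb, none differed at least 8-fold by the rule above, which asks for 5 CPM, and their median log2 difference was 0.05. ERLIN1, an endoplasmic reticulum protein of sterol regulation, stood at 51.2 ± 1.54 CPM with tagBFP and 49.6 ± 1.18 with sgCtrl (SD, n = 3 each; adjusted p = 0.3 in edgeR). NDUFB8, a subunit of respiratory complex I, and CHUK, a kinase of NF-kappaB signalling, were higher with tagBFP by 1.49 and 0.98 on the log2 scale, and 23.6% of the words of NDUFB8 are unique. PKD2L1, a channel subunit, was low in both groups and higher with sgCtrl (0.0409 ± 0.0709 and 0.702 ± 0.174 CPM).

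Most genes of fatty acid synthesis lay in the opposite direction to SCD. Of 26 listed genes, 22 were tested. SCD and 4 others were higher with tagBFP, 15 were higher with sgCtrl and 2 did not pass the test. The share called, 90.9%, is above the 80.2% of all genes, and the median log2 difference was -0.37 against 0.02 for all. SREBF1, the transcription factor that switches on lipogenic genes including SCD, stood at 444, 446 and 407 CPM with tagBFP and 781, 792 and 756 with sgCtrl. It was thus higher in the population with next to no SCD reads (log2 -0.84, adjusted p = 1.88e-08 in edgeR). FASN, the fatty acid synthase, stood at 854, 849 and 738 CPM with tagBFP and 1150, 1200 and 1137 with sgCtrl. ACLY, which supplies cytosolic acetyl-CoA, was at 130 ± 18.8 and 203 ± 17.5 CPM, and INSIG1, which restrains SREBP processing, at 369 ± 18.8 and 510 ± 2.04. SCD thus lay in the opposite direction to its regulator and to the synthase.

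SCD5, the other human stearoyl-CoA desaturase, was read in all 6 libraries and was higher with sgCtrl. It stood at 36.5, 34.5 and 31.9 CPM with tagBFP and 60.7, 61.9 and 61.7 with sgCtrl (log2 -0.84, adjusted p = 7.21e-08 in edgeR). Per length, as TPM, SCD5 stood at 13.9, 12.9 and 11.5 with tagBFP, beside SCD at 15.3, 14.2 and 13.7, and at 25.8 ± 0.317 with sgCtrl, beside SCD at 0.00931 ± 0.0111. The sgCtrl cells therefore held SCD5 messenger RNA and next to no SCD. The front-end desaturases FADS1 and FADS2, which make polyunsaturated fatty acids, were higher with sgCtrl by less than 1.5-fold (log2 -0.26 and -0.42).

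Among the elongases, ELOVL1, which acts on saturated very long chains, was higher with tagBFP (57.9 ± 4.04 against 38.9 ± 1.29 CPM). ELOVL5 and ELOVL6 were higher with sgCtrl (log2 -0.36 and -0.43). PNPLA3, a lipid droplet protein and another SREBF1 target, was low with tagBFP at 1.199, 0.868 and 0.860 CPM and had no read in any sgCtrl library. ACSS2, which makes acetyl-CoA from acetate, showed a log2 difference of -1.86. Its TPM, which allows for transcript length, differed less, at 24.5 ± 1.51 against 40.1 ± 2.95. ACACB changed sign and no longer passed the test when transcript length entered the fit (adjusted p = 0.351 in edgeR). ACACA, ME1, THRSP and ELOVL3 give no comparison: the first is not in the table and the others were below the filter.

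Sterol synthesis, which is driven by the related factor SREBF2, went the other way. Of 15 tested genes, 12 were higher with tagBFP and 3 with sgCtrl (median log2 0.58). HMGCS1, an early enzyme of the mevalonate pathway, stood at 254 ± 7.82 CPM with tagBFP and 92.4 ± 4.37 with sgCtrl, and MVD, a later one, at 62.0 ± 1.205 and 24.0 ± 2.34. SREBF2 itself and CYP51A1, a demethylase of the pathway, were higher with sgCtrl (log2 -0.25 and -0.17).

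**Figure D2:**
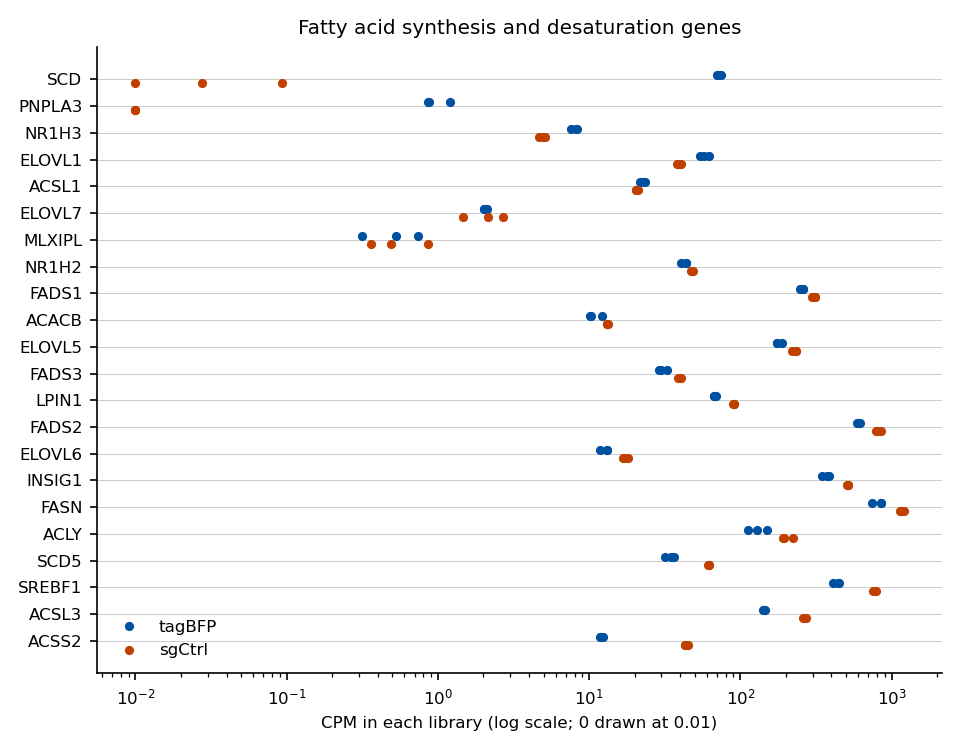
CPM in each library (log scale, 0 drawn at 0.01) for the 22 tested genes of fatty acid synthesis and desaturation, ordered by log2 difference. SCD lies near 70 CPM in the 3 tagBFP libraries and at or below 0.0933 in the 3 sgCtrl libraries, and FASN, SREBF1 and SCD5 lie higher with sgCtrl.

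MRS2, the magnesium channel of the inner mitochondrial membrane, was, of the 14 mostly unique on/off genes, the one with no read in any library of the lower group. The tagBFP libraries held 528, 496 and 392 reads (16.2, 17.2 and 16.04 CPM) and the sgCtrl libraries none. Set against 3 reads over the whole sgCtrl group, the limit that a count of 0 allows, MRS2 was at least 696-fold higher with tagBFP (adjusted p = 1.95e-09 in edgeR). It was read at 13.7 to 19.4 CPM in all 6 ETV6 libraries and at 0, 0.0312 and 0 CPM in the sgERG libraries. Reads lay on 4 of its 6 listed transcripts, so the absence with sgCtrl was not that of a single isoform. Its neighbour GMNN, an inhibitor of replication licensing, stood at 77.2 ± 1.93 and 21.3 ± 0.48 CPM.

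DMD, the dystrophin gene on chromosome X, had 341, 329 and 273 reads with tagBFP and 3, 0 and 0 with sgCtrl. The ratio of the levels was 465 (exact 95% counting interval 159 to 2256). Of its reads, 89.6% lay on DMD-207, 13932 bases long, among 28 listed transcripts. DCHS2, a large protocadherin, had 387, 340 and 268 reads against 2, 2 and 0 (ratio 366, interval 143 to 1342). All of its reads lay on one transcript. LRAT, a retinol-esterifying enzyme within 500 kb of DCHS2, was at 0.403 ± 0.0664 CPM with tagBFP and without reads with sgCtrl.

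The other 3 tagBFP-on genes kept a low level with sgCtrl. ZNF841, a zinc finger protein, stood at 11.03, 11.01 and 11.8 CPM with tagBFP and at 0.14, 0.416 and 0.042 with sgCtrl. C17orf51 stood at 16.3, 15.8 and 16.5 against 0.07, 0.305 and 0.084 CPM. C6orf223 stood at 6.42, 5.24 and 5.44 against 0.117, 0.111 and 0.147 CPM, close to the limit of 5. All sgCtrl libraries were below all tagBFP libraries in each case.

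The on/off pattern of the tagBFP side was largely shared by the other libraries of each experiment. In the 9 libraries that did not enter the fit, 17 of the 22 tagBFP-on genes were at 5 CPM or more in all 6 ETV6 libraries, and all 22 were at 0.5 CPM or less in the 3 sgERG libraries. Of the 7 mostly unique genes 5 kept both. The exceptions were C6orf223, at 4.51 to 5.597 CPM with wild-type ETV6, and C17orf51, which split replicates: 12.5, 1.196 and 1.43 CPM with wild-type ETV6 and 13.6, 13.9 and 1.56 with ETV6 R399C. The sgERG and ETV6 libraries shared the experiment, the vector system and the induction time of their control, so which of these the genes follow cannot be told apart.

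The same side was richer in genes read at low level. With tagBFP, 287 protein-coding genes had at least 10 reads in every library and at most 1 in every sgCtrl library, at a median of 0.787 CPM. In the other direction there were 65, at a median of 0.634 CPM. Of the 287, 268 had 5 or more reads in all 6 ETV6 libraries, and all 287 had at most 5 in each sgERG library. The lower number of genes with a read in the deeper sgCtrl libraries, given above, moved with this count, and its part in the on/off result was not tested.

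UNC13A, which primes synaptic vesicles for release in neurons, had the largest ratio of the 7 mostly unique genes on with sgCtrl. It had 1200, 1070 and 1355 reads with sgCtrl (28.0, 29.7 and 28.4 CPM) and 5, 4 and 2 with tagBFP, a ratio of 224 (exact 95% counting interval 125 to 448; log2 -7.77, adjusted p = 5.55e-11 in edgeR). In the sgERG libraries it stood lower, at 3.92, 6.64 and 7.05 CPM, and 1 of 3 ETV6 R399C libraries held 4.66 CPM while the others held at most 0.0845. With transcript length in the fit UNC13A kept its direction (log2 -3.70) but no longer met the on/off limits.

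FAM117B had 533, 256 and 421 reads with sgCtrl and 0, 3 and 2 with tagBFP, and its level varied between replicates elsewhere, with 6.14, 0 and 10.1 CPM with wild-type ETV6. DCAF7, a WD-repeat adaptor protein, stood at 8.24, 7.02 and 10.0 CPM with sgCtrl against 0.277, 0.382 and 0.368. Its principal transcript is not among the transcripts listed, so the values cover other isoforms only. NSUN7, of a family of RNA methyltransferases, stood at 6.95, 7.54 and 7.18 against 0.43, 0.208 and 0.368 CPM. TJP3, a tight junction scaffold, and COL22A1, a collagen, stood at 6.402 ± 0.701 and 6.12 ± 0.593 CPM with sgCtrl and at 0.227 ± 0.183 and 0.334 ± 0.0427 with tagBFP. HIST2H2AB, a replication-dependent H2A histone gene, stood at 6.13 ± 1.09 against 0.213 ± 0.151 CPM.

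Fewer of these genes carried over to the other libraries. Of the 22 sgCtrl-on genes, 13 were both at 5 CPM or more with sgERG and at 0.5 CPM or less in the 6 ETV6 libraries, but among the 7 mostly unique genes only HIST2H2AB did so. NSUN7 missed by its ETV6 libraries (0.607 to 1.47 CPM) and COL22A1 by its sgERG libraries (1.79 to 2.91 CPM). Transcript length in the fit left 36 of the 44 on/off genes and 8 of the 14 mostly unique ones within the limits. SCD, MRS2, DMD, DCHS2, ZNF841, COL22A1, DCAF7 and NSUN7 remained.

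**Figure D3:**
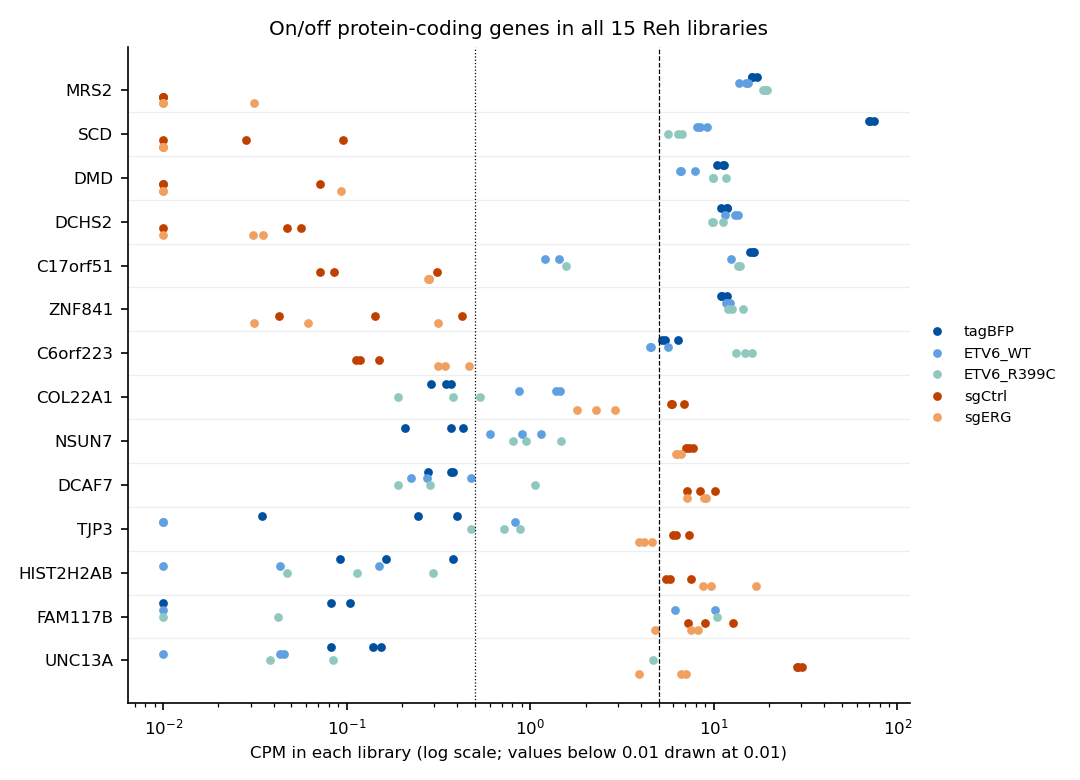
CPM of the 14 mostly unique on/off genes in each of the 15 libraries (log scale, scaled over all libraries, values below 0.01 drawn at 0.01), with dashed and dotted lines at 5 and 0.5 CPM. MRS2, SCD, DMD, DCHS2 and ZNF841 separate the 9 libraries of the DoxON vector from the 6 with a guide, while C17orf51 and FAM117B split replicates of the ETV6 groups.

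Beyond the on/off genes, 38 mostly unique protein-coding genes differed at least 8-fold, 4 higher with tagBFP and 34 with sgCtrl. EGR1, an immediate-early transcription factor, stood at 2.71, 2.57 and 2.74 CPM with tagBFP and at 83.9, 75.3 and 67.7 with sgCtrl (28.3-fold, adjusted p = 2.09e-10 in edgeR). AK4, a mitochondrial adenylate kinase, stood at 2.77 ± 0.0964 and 60.3 ± 0.76 CPM. UNC5B, a netrin receptor, stood at 0.972 ± 0.489 and 34.2 ± 2.03 CPM, and PTPRU, a receptor phosphatase, at 0.856 ± 0.244 and 20.1 ± 0.391. DPEP1, a membrane dipeptidase, SPNS3, a Spinster-family transporter, PANX2, a pannexin, and SYNPO, an actin-associated protein, were 10.6- to 14.5-fold higher with sgCtrl. RFX7, REEP3 and EPDR1 also met the limits, but replicates varied widely: REEP3 stood at 0, 0 and 3.07 CPM with tagBFP, and EPDR1 at 39.5, 9.98 and 48.5 with sgCtrl.

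The 4 genes higher with tagBFP were COX7A2, CYBB, ETV4 and ZNF793. COX7A2, a subunit of cytochrome c oxidase, stood at 79.9, 79.8 and 94.8 CPM with tagBFP and at 7.96, 7.15 and 8.78 with sgCtrl. CYBB, the catalytic subunit of the phagocyte NADPH oxidase, stood at 16.8, 15.98 and 16.3 against 1.19, 1.08 and 1.36 CPM. ETV4, an ETS factor that often follows ERK signalling, stood at 5.53 ± 0.135 against 0.587 ± 0.145 CPM, in the opposite direction to EGR1. CYBB was at 2.92 CPM on average with wild-type ETV6 and 17.1 with ETV6 R399C, and ETV4 at 0.825 and 5.99. The high levels of CYBB and ETV4 were thus not shared by all DoxON populations.

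Replication-dependent histone messenger RNAs end in a stem-loop in place of a poly(A) tail. Of 40 tested protein-coding genes of the histone clusters, 38 were higher with sgCtrl, none with tagBFP, and HIST1H2BJ and HIST1H2BK did not pass the test (median log2 -2.26). Among the 22 of them that are mostly unique, 21 were higher with sgCtrl. HIST2H2BF, HIST1H4B and HIST1H1E, singled out after their values were seen, were 18.2-, 10.2- and 8.15-fold higher with sgCtrl. MT-ND6, the light-strand gene among those coding for mitochondrial proteins, stood at 10.3 ± 0.401 CPM with tagBFP and 199.8 ± 14.4 with sgCtrl. All 13 mitochondrially encoded genes were higher with sgCtrl (median log2 -1.38), from MT-CO2 at -0.47 to MT-ND6 at -4.28. Beside these histone and mitochondrial counts, 38.7% of all tested genes were higher with sgCtrl and 41.5% with tagBFP.

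The B-lineage programme was read strongly in both populations and held no on/off gene. On/off genes were 0.153% of all tested genes in each direction, so their absence from lists of this size does not set the lists apart. Across 4 lists of lineage genes (transcription factors, pre-B-cell receptor and signalling, V(D)J recombination, and surface antigens of B-cell leukaemia) 67 genes were listed, 59 were tested and 58 averaged 5 CPM or more. Of the 59, 17 were higher with tagBFP, 34 were higher with sgCtrl and 8 did not pass the test. The share called, 86.4%, compares with 80.2% of all genes. Only CD9 differed at least 8-fold, as did 0.826% of all tested genes. A gene was counted as stable when the 95% interval of its log2 difference in limma-voom lay within 1.5-fold in either direction and its mean was 5 CPM or more. This held for 27 of the 58 lineage genes and for 53.7% of all genes with that level. Of the 27, 19 nevertheless passed the edgeR test, each with a small difference. The stable set depended on transcript length: 21 of the 27 also met the limit with length in the fit, where 26 genes met it in all.

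Among the transcription factors, TCF4, an E protein, stood at 239, 236 and 222 CPM with tagBFP and 232, 231 and 229 with sgCtrl, and the groups overlapped (log2 0.01, interval -0.07 to 0.09). IKZF1, which sets the lymphoid programme, stood at 265 ± 4.43 and 290 ± 4.43 CPM (log2 -0.13). SOX4, needed by early B-cell precursors, stood at 198 ± 4.12 and 164 ± 5.81. MEF2C and POU2AF1 were also stable, at 562 ± 5.15 and 784 ± 20.3 CPM and at 196 ± 5.71 and 257 ± 3.61. ETS1 met the limit at 54.0 ± 0.901 and 59.3 ± 2.19 CPM, but its direction turned with transcript length in the fit (log2 0.46).

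PAX5, EBF1 and TCF3, factors that define the B lineage, were not among the stable ones in the main fit. PAX5 stood at 683, 664 and 599 CPM with tagBFP and 1092, 1077 and 1053 with sgCtrl (log2 -0.73, adjusted p = 1.59e-07 in edgeR). EBF1 stood at 389, 389 and 376 against 604, 595 and 618 CPM (log2 -0.66), and TCF3 at 686 ± 24.0 against 1090 ± 16.001 (log2 -0.67). For EBF1 and TCF3 the difference shrank to -0.27 and -0.16 with transcript length in the fit, and that of PAX5 to -0.62. EBF1 and TCF3 then met the stable limit, and PAX5 did not. Of 21 factors tested, 16 were higher with sgCtrl and 4 with tagBFP. RUNX1, whose locus is part of the fusion, stood at 246 ± 16.7 and 624 ± 24.5 CPM (log2 -1.34). Reads of the normal allele and of the fusion transcript cannot be told apart. ERG stood at 293 ± 5.26 and 536 ± 6.71 CPM. BCL11A showed a log2 difference of -1.29 that fell to -0.06 with length in the fit, where it met the stable limit. SPIB, an ETS factor of B cells, went the other way, at 41.0, 38.2 and 41.8 CPM with tagBFP and 15.8, 14.95 and 14.5 with sgCtrl. The principal transcript of SPIB is not among those listed, so its values cover other isoforms only, and 68.4% of its words are unique.

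The chains of the receptor complex differed to unequal degrees. CD79A, a signalling chain of the B-cell receptor, stood at 459, 468 and 488 CPM with tagBFP and 378, 383 and 366 with sgCtrl (log2 0.33, interval 0.26 to 0.40). Its partner CD79B, at 476 ± 6.28 and 336 ± 19.4 CPM, just missed the stable limit (log2 0.50, interval 0.41 to 0.59). CD79B met that limit with transcript length in the fit. The surrogate light chain gene IGLL1 stood at 378 ± 4.02 and 467 ± 15.6 CPM, and VPREB3 at 92.3 ± 10.1 and 112 ± 2.55. VPREB1 had no read in any of the 6 libraries. The kinase BLK was level at 46.7 ± 1.04 and 46.8 ± 1.51 CPM (log2 0.00, interval -0.09 to 0.09), and BTK stood at 179.6 ± 5.597 and 135.6 ± 1.96. SYK, a tyrosine kinase of the receptor signal, was not stable, at 186, 188 and 176 CPM with tagBFP and 418, 433 and 427 with sgCtrl (log2 -1.21, adjusted p = 6.47e-10 in edgeR). The adaptor BLNK and the phospholipase PLCG2 lay in the same direction as SYK (log2 -0.89 and -0.94). The heavy chain gene IGHM stood at 114 ± 10.4 and 99.2 ± 0.671 CPM, and IGHD, of the second heavy chain class of naive B cells, at 15.5 ± 1.41 and 45.2 ± 0.54 (log2 -1.55, adjusted p = 6.35e-09 in edgeR).

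Of the recombination genes, RAG2 (322 ± 8.38 and 373 ± 8.93 CPM) and DNTT, terminal transferase (1250 ± 35.6 and 1531 ± 9.25), were stable, and RAG1 was not. RAG1 stood at 1441, 1401 and 1398 CPM with tagBFP and 4377, 4337 and 4460 with sgCtrl (log2 -1.64, adjusted p = 1.9e-10 in edgeR). The partners of the recombinase thus differed unequally. The repair genes lay in both directions. Higher with tagBFP were XRCC5 and XRCC6, the Ku subunits, by 1.14 and 0.98 on the log2 scale, and PRKDC, the DNA-dependent kinase, by 1.87, or 0.91 with length in the fit. DCLRE1C, the nuclease Artemis that opens the hairpin ends, lay the other way, at 8.22 ± 0.502 and 14.9 ± 1.105 CPM (log2 -0.86, adjusted p = 3.62e-06 in edgeR). HMGB1, a cofactor of the recombinase, stood at 2579 ± 113 and 1043 ± 22.0 CPM. Of the words of XRCC6 59.2% are unique, and of those of HMGB1 78.9%, so reads can be exchanged with similar genes. LIG4 was stable at 64.6 ± 1.93 and 52.2 ± 2.83 CPM.

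Of the surface antigens used to recognise B-cell leukaemia, 9 of 14 tested genes were stable, beside 53.7% of all genes averaging 5 CPM or more. CD22 stood at 311, 307 and 313 CPM with tagBFP and 317, 308 and 315 with sgCtrl, with overlapping groups (log2 -0.01, interval -0.07 to 0.05). MME, which encodes CD10, stood at 388, 381 and 388 against 388, 374 and 399.4 CPM (log2 -0.01, interval -0.08 to 0.07). IL7R stood at 855 ± 13.5 and 918.5 ± 6.42 CPM, CXCR4 at 212 ± 3.49 and 224 ± 6.28, CD200 at 33.6 ± 0.874 and 32.8 ± 1.26, CD40 at 11.3 ± 0.178 and 11.9 ± 0.167, and CD72 at 19.8 ± 1.87 and 21.6 ± 0.48. CD38 was stable at 85.5 ± 1.51 and 68.1 ± 4.01 CPM, but its log2 difference of 0.33 rose to 0.89 with length in the fit.

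CD24, FLT3, TNFRSF13C and CD9 were not level. CD24, a glycoprotein of B-cell precursors, stood at 697 ± 23.3 and 387 ± 9.95 CPM (log2 0.85, adjusted p = 6.64e-09 in edgeR). FLT3, a growth factor receptor, and TNFRSF13C, the BAFF receptor, were higher with sgCtrl (log2 -0.95 and -1.46). The tetraspanin CD9 stood at 5.16, 6.56 and 6.92 CPM with tagBFP and 57.1, 60.2 and 59.98 with sgCtrl (log2 -3.26, adjusted p = 4.21e-10 in edgeR). On the scaling over all libraries CD9 averaged 26.3 CPM with wild-type ETV6, 38.0 with ETV6 R399C and 29.6 with sgERG, so both controls lay outside the range of these means.

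**Figure D4:**
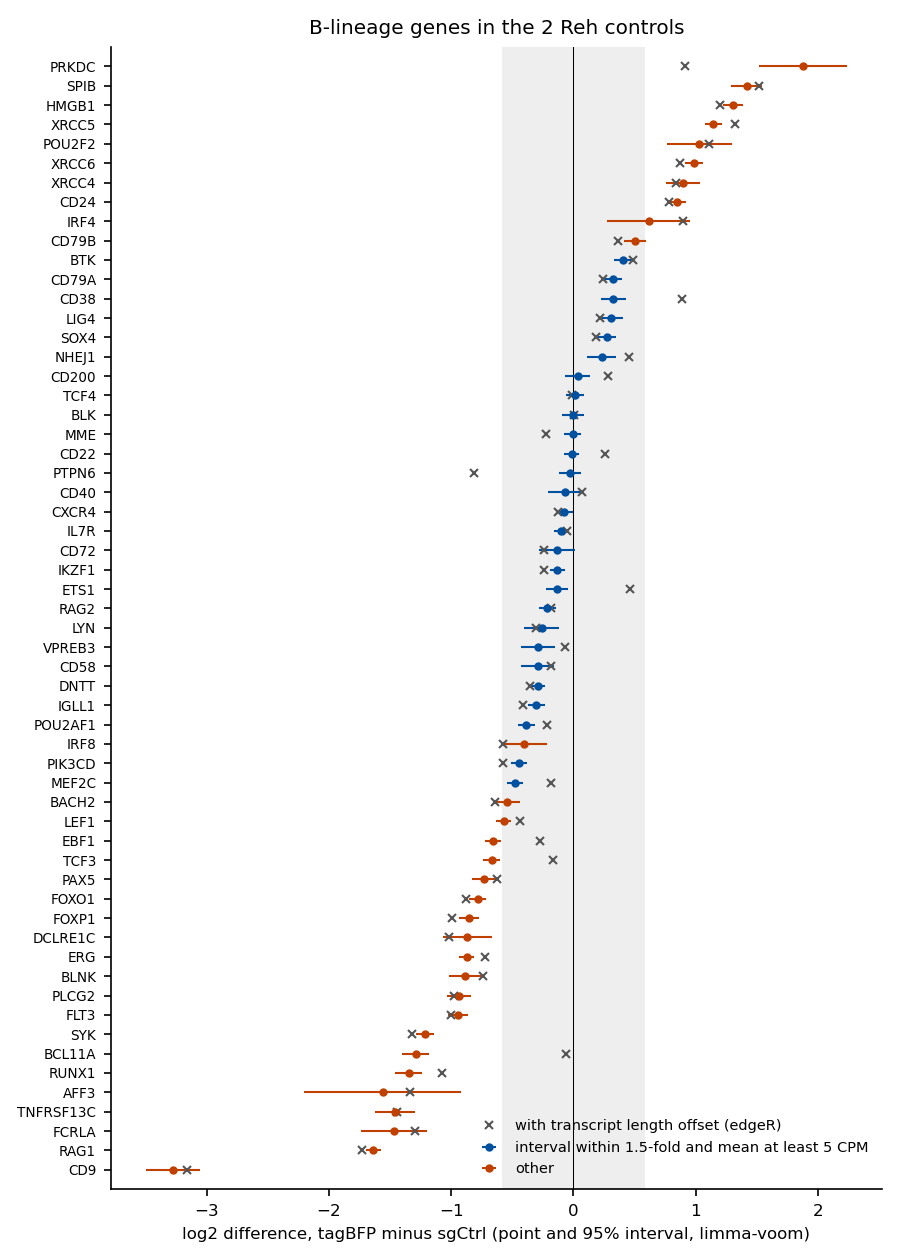
Log2 difference, tagBFP minus sgCtrl, with its 95% limma-voom interval for 58 of the 59 tested lineage genes, over a grey band of 1.5-fold in either direction, and crosses for the edgeR difference with transcript length in the fit. The 27 stable genes lie within the band, with BLK, TCF4, MME and CD22 nearest to 0, and CD9, RAG1, SYK, HMGB1 and PRKDC lie outside it.

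Many markers of other cells had no read in either population, and those that were read lay in both directions. In bulk RNA a few cells of another type and a low level in every cell cannot be told apart. The summed level of the 19 T and NK cell markers in the table ran from 57.9 to 64.1 CPM with tagBFP and from 142 to 148 with sgCtrl, and 4 of them (CD2, CD3D, CD8B and GZMB) had no read in any library. BCL11B, a T-cell factor, made up most of it, at 29.7 ± 2.88 and 113 ± 2.17 CPM. Myeloid markers summed to 151 to 154 and 238 to 246 CPM, with 5 of 20 without a read (ELANE, PRTN3, S100A8, S100A9 and CEBPA). Of the 12 tested, 7 were higher with sgCtrl and 5 with tagBFP. MPO and SPI1 were higher with sgCtrl (37.3 ± 1.00 against 76.2 ± 1.30 CPM for MPO) and CYBB with tagBFP. Erythroid and megakaryocyte markers, with 8 of 18 without a read (GATA1, PF4, ALAS2 and globins among them), summed to 319 to 327 and 115 to 120 CPM. Nearly all of this was TFRC, the transferrin receptor of dividing cells (318 ± 3.93 and 104.7 ± 3.67 CPM). Stromal, epithelial and endothelial markers summed to 39.2 to 40.5 and 81.1 to 85.0 CPM, with 5 of 17 without a read. Plasma cell markers, none at 0, summed to 442 to 457 and 588 to 615 CPM, and XBP1 and MZB1, which precursor B cells also express, made up most of it. The part of any other cell type in the differences was not tested.

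In several gene groups outside the lineage most genes lay in the same direction. Of 20 tested genes of the ATF4 and unfolded protein response, 17 were higher with sgCtrl and 3 with tagBFP (median log2 -0.74, against 0.02 for all genes). TRIB3, a pseudokinase induced by ATF4, stood at 57.2 ± 5.38 CPM with tagBFP and 372 ± 19.98 with sgCtrl, and the amino acid transporter SLC7A5 at 598 ± 34.7 and 1982 ± 60.4. Of 23 glycolysis and hypoxia genes, 18 were higher with sgCtrl and 3 with tagBFP (median log2 -0.72). VEGFA, the vascular growth factor, stood at 23.8 ± 1.55 and 120 ± 2.62 CPM and PDK1, which holds back pyruvate oxidation, at 23.2 ± 0.291 and 88.2 ± 4.13, while GAPDH, of whose words 28.0% are unique, so that reads can be exchanged with its copies, was at 3648 ± 106.8 and 3591 ± 73.7. Immediate-early and ERK feedback genes counted 14 of 17 higher with sgCtrl and 1, ETV4, higher with tagBFP. Replication and mitosis genes lay the other way, with 18 of 20 higher with tagBFP and 1 with sgCtrl (median log2 0.50). PCNA, the replication clamp, stood at 588 ± 24.6 and 227 ± 8.94 CPM and CCNB1, a mitotic cyclin, at 185 ± 8.81 and 74.5 ± 2.79.

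Of genes known as markers of ETV6::RUNX1 leukaemia, 12 of 19 were higher with sgCtrl and 5 with tagBFP. SEMA6A, a semaphorin, stood at 4.61 ± 0.897 CPM with tagBFP and 0.399 ± 0.135 with sgCtrl, while IGF2BP1, an RNA-binding protein of this subtype, was stable at 384 ± 18.8 and 472 ± 5.83. Of 8 MHC class II genes and regulators, 4 lay each way. The invariant chain CD74 stood at 1101 ± 23.7 and 1219 ± 21.1 CPM, its direction turning with transcript length in the fit (log2 0.40). Of 9 stem and progenitor regulators tested, 2 were higher on each side and 5 did not pass. Of 12 imprinted genes, 3 were higher with tagBFP and 5 with sgCtrl. Of 38 testis-restricted tumour antigens, 6 were tested, with 4 higher with tagBFP and 1, PRAME, with sgCtrl (3.24 ± 0.284 against 14.7 ± 0.439 CPM). Only 1 of the 6 averaged 5 CPM or more, so the other calls rest on low levels. Beside the counts of this and the preceding paragraph, 41.5% of all tested genes were higher with tagBFP and 38.7% with sgCtrl.

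Interferon and p53 targets were more mixed. Of 27 interferon response genes, 17 were higher with sgCtrl, 5 with tagBFP and 15 were stable, among them STAT2, MX2 and OAS2. Of the 27, 25 averaged 5 CPM or more, and 53.7% of all genes at that level were stable. OAS2 stood at 31.4 ± 0.828 and 31.4 ± 0.355 CPM. IFITM3 was 28.0-fold higher with tagBFP (14.7 ± 1.49 against 0.518 ± 0.0406 CPM), but only 56.7% of its words are unique, and reads can be exchanged with its near relatives IFITM1 and IFITM2. Of 16 p53 targets, 11 were higher with sgCtrl and 2, BAX and AEN, with tagBFP. CDKN1A, the cell cycle inhibitor, stood at 59.8 ± 0.874 and 93.8 ± 0.341 CPM. Since 80.2% of all genes passed the test, these counts are read by their direction and median, and no list is set apart from other genes by them.

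**Figure D5:**
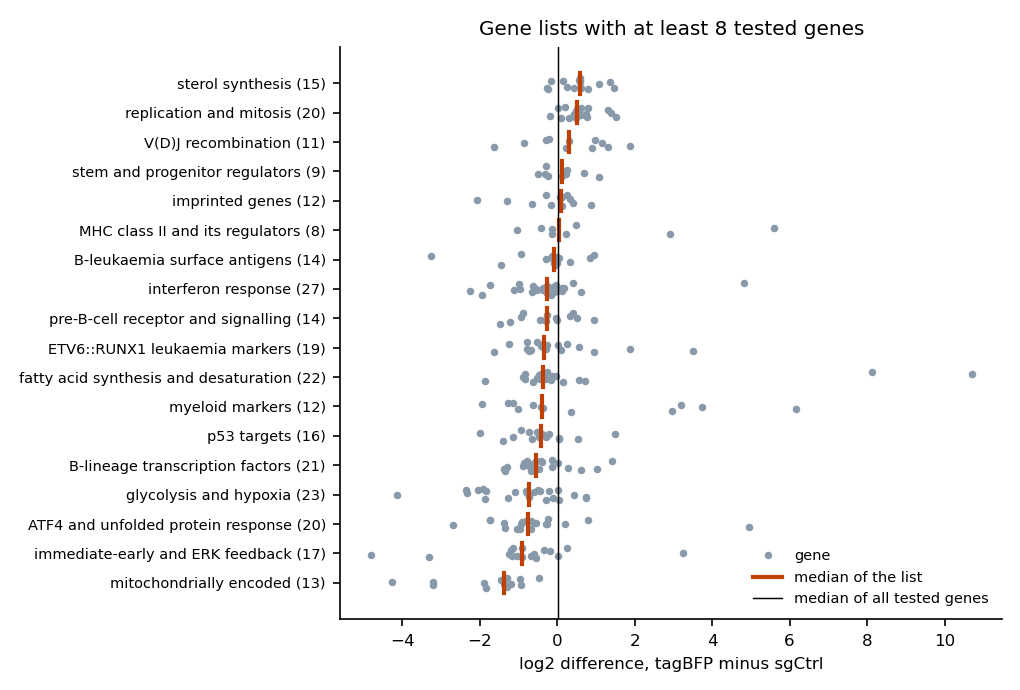
Log2 difference, tagBFP minus sgCtrl, of each tested gene (points) in the 18 lists with at least 8 tested genes, with the median of each list (bar) and that of all tested genes (line at 0.02). The medians run from -1.38 for mitochondrially encoded genes to 0.58 for sterol synthesis, and SCD is the point farthest to the right.

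No nuclear chromosome was shifted as a whole by its median. Such a median cannot show a short segment or differences in opposite directions. The median log2 difference of the tested genes of each nuclear chromosome lay between -0.04 (chromosome 9) and 0.09 (chromosome 16). On/off genes came from many chromosomes, at most 3 of each direction on any. The 189 tested genes within 500 kb of the 14 mostly unique on/off genes had a median log2 difference of 0.01 and a median size of 0.49, against 0.02 and 0.53 for all tested genes. That median pools both directions, so shifts shared with an on/off gene would cancel in it. Among on/off genes with 9 or more such neighbours, the local median ran from -0.38 for HIST2H2AB to 0.68 for MRS2. Both lay in the direction of the on/off gene. For DCAF7 and FAM117B, on with sgCtrl, it was 0.13 and 0.11, the opposite direction. Shared local shifts were not tested.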

How the data were processed

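Messenger RNA of 15 Reh libraries in 5 groups of 3 was measured, and the 3 tagBFP and 3 sgCtrl libraries, grouped by title, were compared. The authors deposited a Salmon table per library with an estimated count of reads, TPM, length and effective length for each of 167268 transcripts, per the file headers. The deposited effective length is in bases. The submitters' processing notes name Salmon 0.11.3 and hg38. How strand, bias and read filtering were set is not given in the sources used here. Salmon divides reads among similar transcripts, so overlapping, antisense and near-identical genes can exchange reads. The deposited TPM is already scaled for length and depth, and the deposited estimated counts are not normalized.

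By identifier, 90.3% of transcripts were matched to GENCODE 29, and the unmatched ones, with 6.73% to 7.36% of the reads of these 6 libraries, were left out. Counts were summed over 33367 genes and rounded. The test was edgeR 4.0.16 (quasi-likelihood, TMM, default filter, Benjamini-Hochberg adjustment over 14404 genes) in R 4.3.3, and intervals came from limma-voom (limma 3.58.1). The SE restates the test, as the log2 difference divided by the square root of F. The biological coefficient of variation was 4.91%. Values in the ETV6 and sgERG libraries, and the summed levels of marker lists, use TMM scaling over all 15. On data simulated from these 6 libraries (14404 genes, 200 changed, 3 draws), 70.7% of genes changed 1.5-fold and 96.7% changed 8-fold were recovered, 6.6% of calls were unchanged genes, and 95.4% of 95% intervals of unchanged genes held 0. Far fewer genes were changed there than were called in the data. Replicates differed by more than sampling noise (chi-square per degree of freedom 3.03 to 6.49). Unique words were canonical 31-base words of the most counted transcript found in no other GENCODE 29 gene, and this criterion was set after seeing the data. Counting intervals and floors cover counting error only. Promoters came from a RefSeq table (GRCh38.p14), where 10 of the 14 mostly unique on/off genes were matched by symbol.

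The groups, the 23 gene lists and the rules were chosen with earlier results of these data known. Named are SCD, up to 15 protein-coding on/off genes each way, the 10 largest other 8-fold differences each way, list members that were on/off, 8-fold, stable (lineage lists) or highest in TPM, the fatty acid genes and the neighbours of SCD. Other genes were named after their values were seen: VASH1, ZNF626, ZBTB8B, AC116533.1, the histone genes, LRAT, GMNN, IGHM, TRIB3 and single examples from lists. Some genes are not reported here. Alternatives were other scaling, DESeq2 1.42.0, no filter, transcript length, all 15 libraries, equal depth, a replicate block, leaving out each library, and other limits.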

Additional observations from a re-analysis of the deposited data

How the results depend on the processing

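The counts of called genes, of genes at least 8-fold apart and of on/off genes stayed within 1.5 times under RLE scaling, DESeq2, no filter, all 15 libraries, equal depth and each library left out, and all 44 on/off genes were shared under each of these. Transcript length in the fit left 36 of the 44, gave 63 genes at least 8-fold higher with tagBFP and 3 mostly unique genes on with sgCtrl. Of the named genes called in the main fit, it reversed CD74 (log2 0.40), SDK2 (3.34) and ETS1 (0.46), which still passed the test. The sign also turned for ACACB (0.19), MCM4 (-0.071) and RFX5 (0.059). These no longer passed (adjusted p = 0.351, 0.191 and 0.173 in edgeR). The cause was not tested. Limits of 10 and 0.1 CPM gave 6 on/off genes in each direction, all 6 and 6 of them kept in the other libraries, with 4 mostly unique on with tagBFP and 0 with sgCtrl. Limits of 2 and 1 CPM gave 119 and 139, of which 40 and 70 were mostly unique. TPM in place of CPM gave 70 genes on with tagBFP, of which 11 kept both levels in the other libraries, and 2 mostly unique genes on with sgCtrl. At 95% unique words, chosen after seeing the data, 3 were on with tagBFP. An interval within 1.2-fold held for 11 lineage genes and one within 2-fold for 38. The median log2 difference near on/off genes was 0.01, and became 0.19 with transcript length, -0.013 with all 15 libraries, and -0.044 to 0.034 with a library left out. Over the 214 named genes and all settings, 2731 values kept their side of the threshold. Another 32 lost the call, 11 gained it and 6 reversed. Those of ACACB, MCM4 and RFX5, counted as reversed, had lost the call as well. Reversal was counted only for genes called in the main fit. Signs of the other genes could change uncounted, as with CD40 (log2 -0.071, and 0.069 with transcript length). Among the lost calls, REEP3 failed in DESeq2 (adjusted p = 0.0798), and CXCR4, whose adjusted p was 0.0472 in edgeR, failed in 7 settings.

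Replicate numbers did not pair the libraries: same-numbered deviations correlated at 0.066, -0.023 and -0.007. With a replicate block, the genes differing between tagBFP and sgCtrl in edgeR numbered 11406, with 22 and 22 on/off genes and 27 stable lineage genes. Genes near the lower limit of 0.5 CPM rest on few reads, and shared sequence limits the pseudogenes and copies.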
